A study of Mus musculus with 4 samples.

Results

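Glycolysis and the hypoxia response are described here through 32 genes, of 31053 in the deposited matrices, listed by name. No measured value enters the rule, but the list was drawn up with earlier results of these data known. They comprise 20 genes of glucose uptake, the glycolytic chain and the fate of its products, and 12 genes of the hypoxia response. The hypoxia response is Hif1a with genes known as its targets or regulators. The genes called exit genes below are the carriers Slc16a3 and Slc16a1 and, by grouping only, Pdk1, which is no carrier. The cells were CD4 T cells of the BALB/c RAG2-/- TS1 Tg strain, sorted from mice with graft-versus-host disease (GVHD) at 4 weeks post-transplantation. Cells of 5 compartments (spleen, colon, skin, and the intraepithelial and lamina propria layers of the small intestine) were pooled into each of 2 replicate libraries, sequenced from the 3' end in droplets. The labels describe no mice without GVHD, and the origin of each replicate is not given. The p-values therefore measure only how far these libraries spread, which may be technical. The matrices hold no hashtag counts as read here, so no cell has a tissue, and the tissue of a cell cannot be told apart from the state described by its genes.

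Glycolysis splits glucose into pyruvate in the cytosol. Activated T cells are known to raise it when they grow and make cytokines, and they export much of the pyruvate as lactate. Hif1a, the oxygen-regulated subunit of the transcription factor HIF-1, binds short DNA elements built on ACGTG (or GCGTG) and is known to switch on glucose transporters, most glycolytic enzymes and genes that restrain mitochondrial respiration. In T cells it is also induced by antigen receptor signalling at normal oxygen.

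The DNA before the start of 5 members is shown because they carry, or lack, the ACGTG core and were each called higher in cells with Il13 or Csf2 below. These 5 were picked with their values known. The windows are the 250 bases before the annotated start in RefSeq (GRCm38.p6), printed 5′ to 3′ on the gene's own strand, with each ACGTG, or its reverse complement CACGT, in capitals. Hk2, at chr6:82774455-82774704 on the minus strand, encodes the inducible hexokinase. Pgk1, at chrX:106186850-106187099 on the plus strand, encodes the first ATP-yielding kinase of the chain. P4ha1, at chr10:59323046-59323295 on the plus strand, encodes a collagen prolyl hydroxylase subunit. Ankrd37, at chr8:45999851-46000100 on the minus strand, encodes an ankyrin repeat protein, and stood at 20.2 and 15.1 CPM (defined below) in replicates 1 and 2 of those cells against 11.3 and 10.4 CPM in the others. Tpi1, at chr6:124814159-124814408 on the minus strand, encodes triosephosphate isomerase and has no match. In the GENCODE annotation Tpi1 starts further upstream, at chr6:124814296, and Ankrd37 at chr8:46005707. By that annotation part of the Tpi1 window and all of the Ankrd37 window lie inside the gene.
Hk2: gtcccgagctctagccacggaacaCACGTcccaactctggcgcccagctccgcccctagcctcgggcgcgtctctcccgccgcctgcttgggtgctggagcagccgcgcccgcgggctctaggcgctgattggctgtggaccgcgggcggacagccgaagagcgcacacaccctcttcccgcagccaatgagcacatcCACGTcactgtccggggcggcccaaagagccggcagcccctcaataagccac
Pgk1: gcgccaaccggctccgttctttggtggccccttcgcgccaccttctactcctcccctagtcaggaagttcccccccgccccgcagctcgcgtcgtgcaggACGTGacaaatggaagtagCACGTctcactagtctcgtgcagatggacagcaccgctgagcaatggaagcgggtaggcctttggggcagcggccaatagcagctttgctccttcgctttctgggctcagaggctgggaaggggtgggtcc
P4ha1: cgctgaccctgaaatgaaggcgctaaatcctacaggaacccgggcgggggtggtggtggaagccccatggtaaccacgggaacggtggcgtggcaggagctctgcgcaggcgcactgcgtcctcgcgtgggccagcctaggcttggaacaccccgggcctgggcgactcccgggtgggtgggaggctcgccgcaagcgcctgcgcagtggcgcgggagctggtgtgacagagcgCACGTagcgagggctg
Ankrd37: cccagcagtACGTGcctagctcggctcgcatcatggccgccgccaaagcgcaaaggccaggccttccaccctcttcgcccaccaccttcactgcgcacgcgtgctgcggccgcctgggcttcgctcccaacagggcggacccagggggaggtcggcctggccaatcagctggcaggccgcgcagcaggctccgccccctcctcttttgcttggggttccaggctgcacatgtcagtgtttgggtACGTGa
Tpi1: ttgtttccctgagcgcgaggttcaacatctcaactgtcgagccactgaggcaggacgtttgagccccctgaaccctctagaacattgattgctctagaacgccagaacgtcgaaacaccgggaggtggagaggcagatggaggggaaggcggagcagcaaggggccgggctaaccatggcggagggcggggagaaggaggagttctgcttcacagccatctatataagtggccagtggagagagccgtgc

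Of the 32 members, 29 were found by symbol in the RefSeq promoter table, with 40 windows of 300 bases (250 before to 50 after a start). ACGTG on either strand stood in 62.5% of these 40 windows, against 19.62% of all 32851 windows in the table. The members' windows are rich in CG, and among the 11378 windows at least as rich as their lower quartile, 28.41% held ACGTG. By role, 90.91% of 11 windows of the hypoxia response genes and 51.72% of 29 windows of the transporter, enzyme and exit genes held it. These are shares of windows and not of genes, as some genes, Eno1 among them, have several windows. Counted by gene, 23 of the 29 members held ACGTG in at least 1 window. GCGTG on either strand, which can share letters with a neighbouring ACGTG, stood in 57.5% of the members' windows, 32.39% of all windows and 60.56% of the CG-rich ones. A match is a description of letters, not a site of binding.

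Cells were barcodes with at least 1000 UMIs (unique molecular identifiers, each 1 captured transcript), at least 500 genes, a mitochondrial share of at most 10% and at least 1 UMI of Cd3e, Cd3d or Cd3g, the T cell receptor's signalling chains. That left 18972 cells in replicate 1 and 15857 in replicate 2, with medians of 2689 and 3702 UMIs. Each cell was thinned to 1500 UMIs, which 15260 and 14839 cells reached. Cd3e, a marker of every T cell, had a UMI in 93.1% and 92.1% of the thinned cells. Cd4 had one in 24.8% and 25.9%, and Cd8a, which the label CD4 does not name, in 33.0% and 29.6%, while its partner Cd8b1 had one in 6.62% and 6.33%. Barcodes under 100 UMIs, a measure of free RNA, held members at levels close to those of cells: Hk2 stood at 16.2 CPM in free RNA of replicate 1 and 16.3 in replicate 2 against 20.2 and 22.2 CPM in kept cells, and Ldha at 768 and 693 against 782 and 738. The genes that define the classes were in free RNA too. Il13 stood there at 71.5 and 75.9 CPM against 67.0 and 72.6 CPM in the thinned cells, Il10 at 39.7 and 53.0 against 42.6 and 60.3, and Cd8a at 423 and 434 against 494 and 447. Csf2 stood at 121 and 111 CPM in free RNA against 151 and 139.5 in cells, Itgae at 188 and 206 against 246 and 263, and Tcf7 at 35.9 and 41.0 against 46.6 and 46.8. A UMI of a class gene therefore does not show that the cell made it, and the classes below are cells with such a UMI. The part of free RNA in the classes and in the levels was not tested. The libraries shared 578 kept barcodes, where independent draws would share 44.3, and the results are therefore also given without them. The shared barcodes had a median of 15709 UMIs in replicate 1 and 1725.5 in replicate 2.

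Levels are CPM, the summed thinned UMI counts of a class of cells in a library, scaled to the same total in every class. Reads come from transcript ends, so levels are compared between cells and not between genes. Several enzyme genes, Gapdh among them, have near-identical pseudogenes in the mouse genome, and their counts are uncertain to that extent. A member is called higher or lower where edgeR's quasi-likelihood test on the class sums, with the library as a block, gave a Benjamini-Hochberg adjusted p under 0.05 over all genes tested. Each split has 4 sums and 1 residual degree of freedom, so the test leans on the spread shared over genes. Whether classes overlap between libraries is described for members picked mostly because they were called, so it adds no evidence to the call. The share of all genes without overlap was not counted. Vegfa, the angiogenic growth factor, had 15 and 6 UMIs in all thinned cells of the replicates and was not tested, which left 31 members.

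**Figure D1:**
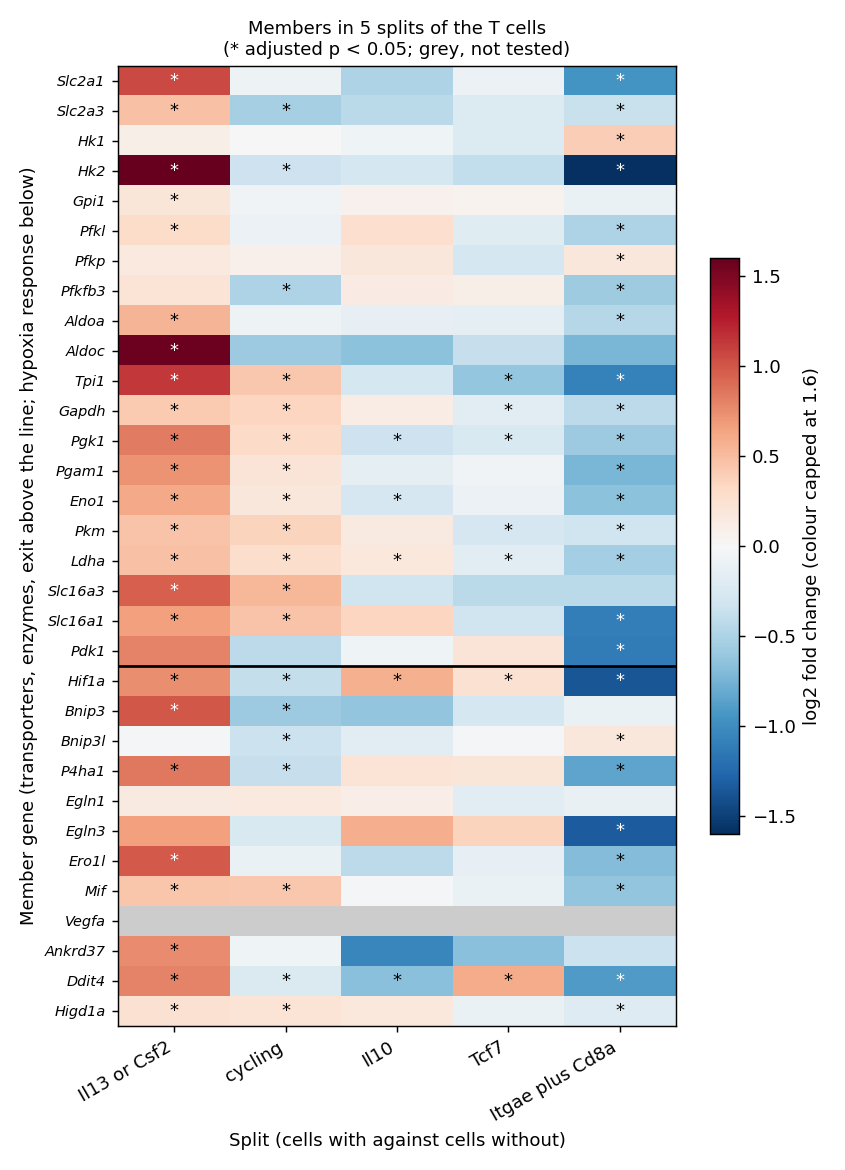
Log2 fold change of each of the 32 members (rows) in 5 splits of the T cells (columns), cells with the named genes against cells without; asterisks mark adjusted p under 0.05 and grey marks Vegfa, not tested. The Il13 or Csf2 column is red or near white throughout with 24 asterisks, and the Itgae plus Cd8a column is mostly blue with 22 members lower and 3 higher.

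Cells with Il13 or Csf2, genes of the type 2 cytokine IL-13 and of the myeloid growth factor GM-CSF, had higher levels of both the glycolytic chain and the hypoxia genes. The class held 1679 and 1415 cells of the replicates, 10.3% ± 1.04 (SD, n = 2) of all thinned cells. Of 31 members, 24 were higher and 0 lower than in the other cells, where 10.3% of the 11426 genes tested were higher and 6.91% lower. The median log2 fold change of the members was 0.66, against -0.01 over all genes tested. Both glucose transporters, 12 of 15 enzymes, 2 of 3 exit genes and 8 of 11 hypoxia genes were higher. The 7 members not called were Hk1, Pfkp, Pfkfb3, Pdk1, Bnip3l, Egln1 and Egln3. The count was again 24, with the same members, once the shared barcodes were left out. Then 1137 of 11358 genes tested were higher and 762 lower.

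Slc2a1, the glucose transporter that T cells bring to the surface on activation, stood at 43.3 and 46.6 CPM in replicates 1 and 2 of the cytokine class and at 24.1 and 20.4 CPM in the other cells. Both libraries of the class lay above both libraries of the rest, a 2.07-fold difference (log2 1.05 ± 0.128 SE, n = 2, adjusted p = 4.76e-14 by edgeR's quasi-likelihood test). Hk2, which traps glucose in the cell by phosphorylation, stood at 46.5 and 52.8 CPM against 16.003 and 17.1 CPM. Its classes were far apart in both libraries and its 3.09-fold difference was the largest among the members called here (log2 1.63 ± 0.129 SE, adjusted p = 2.81e-30 by edgeR's quasi-likelihood test). The constitutive hexokinase gene Hk1 stood at 46.5 and 49.0 CPM against 45.8 and 46.2 CPM and was not called (adjusted p = 0.641 by edgeR's quasi-likelihood test).

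Further down the chain, Tpi1, which interconverts the triose phosphates, stood at 263 and 209 CPM in the class and at 124 and 97.4 CPM in the rest. The libraries of the class were both above those of the rest, 2.20-fold (log2 1.14 ± 0.066 SE, adjusted p = 1.46e-51 by edgeR's quasi-likelihood test). Pgk1 stood at 534 and 431 CPM against 296 and 264 CPM, again without overlap (log2 0.83 ± 0.056 SE). Ldha, which turns pyruvate into lactate, stood at 969 and 862 CPM against 701 and 669 CPM, a smaller 1.38-fold difference in the same direction in both libraries (adjusted p = 3.53e-17 by edgeR's quasi-likelihood test). The lactate and pyruvate carriers Slc16a3 and Slc16a1 were both called higher, at under 20 CPM. Pdk1 encodes a kinase that inhibits the pyruvate dehydrogenase complex in the mitochondrion. It was at 7.15 and 6.60 CPM against 4.42 and 3.72 CPM and missed the threshold (adjusted p = 0.0588 by edgeR's quasi-likelihood test).

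Among the hypoxia genes, Hif1a itself stood at 451 and 469 CPM against 273 and 294 CPM. Both libraries of the class were higher, 1.67-fold (log2 0.74 ± 0.056 SE, adjusted p = 2.72e-33 by edgeR's quasi-likelihood test). Ero1l, an oxidase of protein folding, stood at 76.2 and 67.4 CPM against 37.5 and 37.7 CPM (log2 0.98 ± 0.103 SE). P4ha1 stood at 43.7 and 45.2 CPM against 25.5 and 25.4 CPM (log2 0.85 ± 0.126 SE). For both genes the classes were well separated and the libraries within a class close together. Ddit4, an inhibitor of mTORC1 that hypoxia and glucocorticoids induce, stood at 94.5 and 95.2 CPM against 62.2 and 50.6 CPM, higher in both libraries of the class (log2 0.79 ± 0.089 SE). The mitophagy receptor Bnip3 was called higher at under 20 CPM, while its relative Bnip3l, at 147 and 167 CPM against 154 and 175 CPM, overlapped between the classes and was not called.

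Genes of the same pathways outside the 32 were counted in the same way. Of 28 other hypoxia genes tested, 9 were higher and 1 lower; the metastasis suppressor Ndrg1 stood at 34.9 and 31.1 CPM against 9.38 and 6.90 CPM (log2 2.06 ± 0.166 SE), and Adm, under 3 CPM in both libraries, was also called higher. Of 13 other glycolysis genes tested, which include liver, muscle and testis forms, 1 was higher, the transporter gene Slc2a6 at 4.37 and 2.36 CPM against 0.982 and 0.894 CPM. Of 39 oxidative phosphorylation genes, 3 were higher and 2 lower, with a median log2 fold change of -0.00. The pentose phosphate branch had 0 higher and 2 lower of 7. The glucocorticoid response list had 3 higher and 1 lower of 7, with Tsc22d3, a glucocorticoid-induced regulator, at 496 and 458 CPM against 317 and 291 CPM (log2 0.70 ± 0.055 SE).

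The share of all UMIs that the 20 transporter, enzyme and exit genes took was graded with the cytokine genes a cell showed. It was 0.528% and 0.488% in cells with neither gene in replicates 1 and 2. It was 0.701% and 0.605% in cells with Csf2 alone, and 0.778% and 0.662% with Il13 alone. In the 198 and 169 cells with both it was 0.875% and 0.882%. The hypoxia list went from 0.117% and 0.116% with neither to 0.190% and 0.199% with both. In each replicate the cells with both genes were highest for both lists and those with neither were lowest. The mitochondrial share of UMIs also differed, with medians of 3.38% and 3.12% in the class and 2.62% and 2.43% in the rest, and the 9 neutrophil marker genes, all detected, summed to 0.0514% and 0.0872% of UMIs in the class against 0.174% and 0.283%. The part of these in the result was not tested, beyond 2 counts. In cells with a mitochondrial share of at most 5%, 23 members were higher and 0 lower. In cells without markers of other types, 18 were higher and 0 lower. Over all genes, 934 of 11116 were higher and 544 lower at that mitochondrial share, and 625 of 10022 higher and 323 lower without those markers. Cells with such markers had at least 2 UMIs of any 1 of 7 marker lists before thinning, a rule that deeper cells meet more easily. Leaving them out removes 31.2% of thinned cells in replicate 1 and 65.2% in replicate 2. Here and below, fewer cells, fewer deep cells and fewer cells of other types therefore cannot be told apart.

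**Figure D2:**
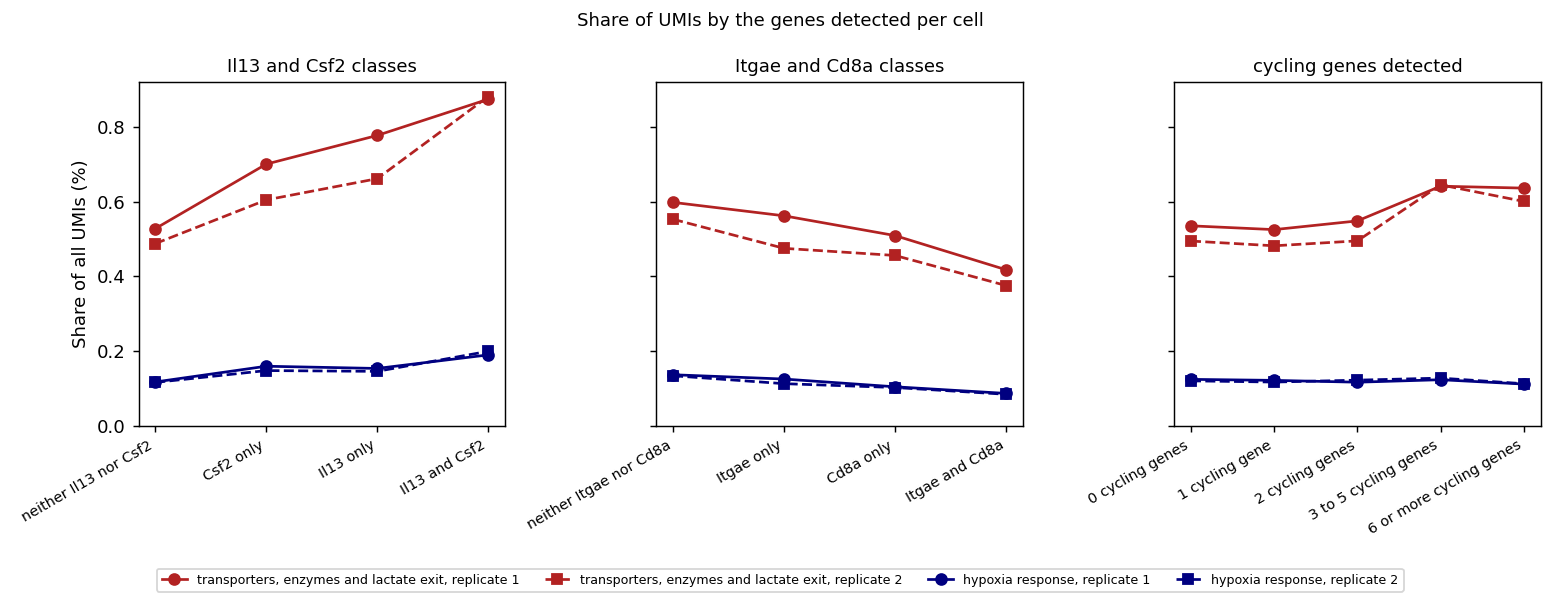
Share of all UMIs (%) in the 20 transporter, enzyme and exit genes (red) and the 12 hypoxia response genes (blue) by the Il13 and Csf2, Itgae and Cd8a, and cycling genes detected in a cell; circles and solid lines are replicate 1, squares and dashed lines replicate 2. Both lists are highest in cells with Il13 and Csf2 together and lowest in cells with Itgae and Cd8a together, and the red lines step up between 2 and 3 to 5 cycling genes.

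Cells with both Itgae and Cd8a showed the opposite picture. Itgae encodes the integrin chain CD103 that binds epithelial cadherin, and Cd8a the CD8 alpha chain; both are known in intraepithelial lymphocytes. The class held 2318 and 2368 cells, 15.6% ± 0.543 (SD, n = 2). Of 31 members, 22 were lower and 3 higher, where 18.4% of the 11251 genes tested were lower and 15.5% higher. The members' median log2 fold change was -0.57, against -0.01 over all genes tested. The transporter, enzyme and exit genes counted 15 lower and 2 higher of 20, and the hypoxia genes 7 lower and 1 higher of 11. Without the shared barcodes 22 were lower and 2 higher, where 1879 of 11198 genes tested were lower and 1602 higher.

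Slc2a1 stood at 16.7 and 10.1 CPM in the class and at 27.9 and 25.3 CPM in the other cells (log2 fold change -0.96 ± 0.151 SE). Hk2 stood at 6.04 and 4.79 CPM against 21.7 and 23.5 CPM. Both libraries of the class were far below the rest, and the 4.08-fold difference was the largest among the members (log2 -2.03 ± 0.200 SE, n = 2, adjusted p = 1.52e-22 by edgeR's quasi-likelihood test). Hk1 went the other way, with 55.2 and 58.3 CPM in the class and 44.2 and 44.3 CPM in the rest (log2 0.39 ± 0.094 SE, adjusted p = 0.000185 by edgeR's quasi-likelihood test). Of the phosphofructokinase genes, which encode the committed step, Pfkp was at 90.0 and 100.5 CPM against 85.9 and 86.4 CPM, higher by a small margin (adjusted p = 0.0496 by edgeR's quasi-likelihood test), and Pfkl was called lower.

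Tpi1 stood at 67.9 and 57.2 CPM in the class and at 152 and 118 CPM in the other cells, lower in both libraries (log2 -1.08 ± 0.076 SE). Pgam1, the mutase that follows Pgk1 in the chain, stood at 137 and 113 CPM against 218 and 209 CPM (log2 -0.74 ± 0.060 SE). Ldha stood at 530 and 475 CPM against 767 and 728 CPM (log2 -0.54 ± 0.043 SE). These genes, picked as called, had separate classes in both libraries. Slc16a1, under 12 CPM in every class, was also lower, and so was Pdk1, while Slc16a3 was not called.

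Hif1a showed the smallest p among the members in this split. It stood at 132 and 122 CPM in the class and at 322 and 347 CPM in the rest, 2.57-fold lower and without overlap (log2 -1.36 ± 0.058 SE, adjusted p = 5.56e-118 by edgeR's quasi-likelihood test). Ddit4 stood at 35.4 and 32.7 CPM against 71.2 and 59.1 CPM (log2 -0.90 ± 0.101 SE). P4ha1 stood at 17.5 and 14.6 CPM against 29.3 and 29.7 CPM (log2 -0.84 ± 0.140 SE), and Ero1l at 26.2 and 26.7 CPM against 44.6 and 43.2 CPM (log2 -0.70 ± 0.112 SE). All of these lay lower in both libraries of the class. Bnip3l was the exception, at 160 and 197 CPM against 152 and 170 CPM; the classes overlapped across libraries, but within each library the class was higher (log2 0.18 ± 0.058 SE, adjusted p = 0.00675 by edgeR's quasi-likelihood test).

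Of 26 other hypoxia genes tested, 11 were lower and 4 higher. Bhlhe40, a transcription factor of cytokine-making T cells, stood at 208 and 168 CPM against 527 and 520 CPM (log2 -1.45 ± 0.052 SE), while Plin2, which coats lipid droplets, was higher at 25.9 and 28.7 CPM against 15.2 and 16.4 CPM (log2 0.82 ± 0.137 SE). The glucocorticoid response list had 5 lower and 0 higher of 7, with Sgk1, a kinase, at 24.2 and 29.6 CPM against 60.6 and 63.0 CPM. The pentose phosphate branch, which leaves glycolysis after the hexokinase step, had 4 higher and 0 lower of 7, and oxidative phosphorylation 6 higher and 3 lower of 39. The share of UMIs in the 20 transporter, enzyme and exit genes was 0.418% and 0.376% in cells with both Itgae and Cd8a and 0.599% and 0.553% in cells with neither. Cells with 1 of the genes lay between in each replicate: 0.563% and 0.475% with Itgae alone, 0.510% and 0.456% with Cd8a alone. The class had higher median UMIs before thinning, 3626.5 and 4303.5 against 3054 and 3747, a lower median mitochondrial share, 2.13% and 2.03% against 2.79% and 2.58%, and less of the neutrophil markers, 0.0575% and 0.0557% of UMIs against 0.179% and 0.304%. Their part in the result was not tested. In cells without markers of other types, 17 members were lower and 0 higher, where 1324 of 10007 genes tested were lower and 1069 higher. The log2 fold changes of Hk1, Pfkp and Bnip3l, no longer called, were then 0.20, 0.04 and 0.08. The count of higher members was 3 with no thinning and 2 with a second random thinning. It was 2 with thinning to 2000 UMIs and 1 with thinning to 1000 UMIs. Genes called higher were 3476 of 13330, 1732 of 11329, 2246 of 11458 and 1010 of 10885 in that order.

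**Figure D3:**
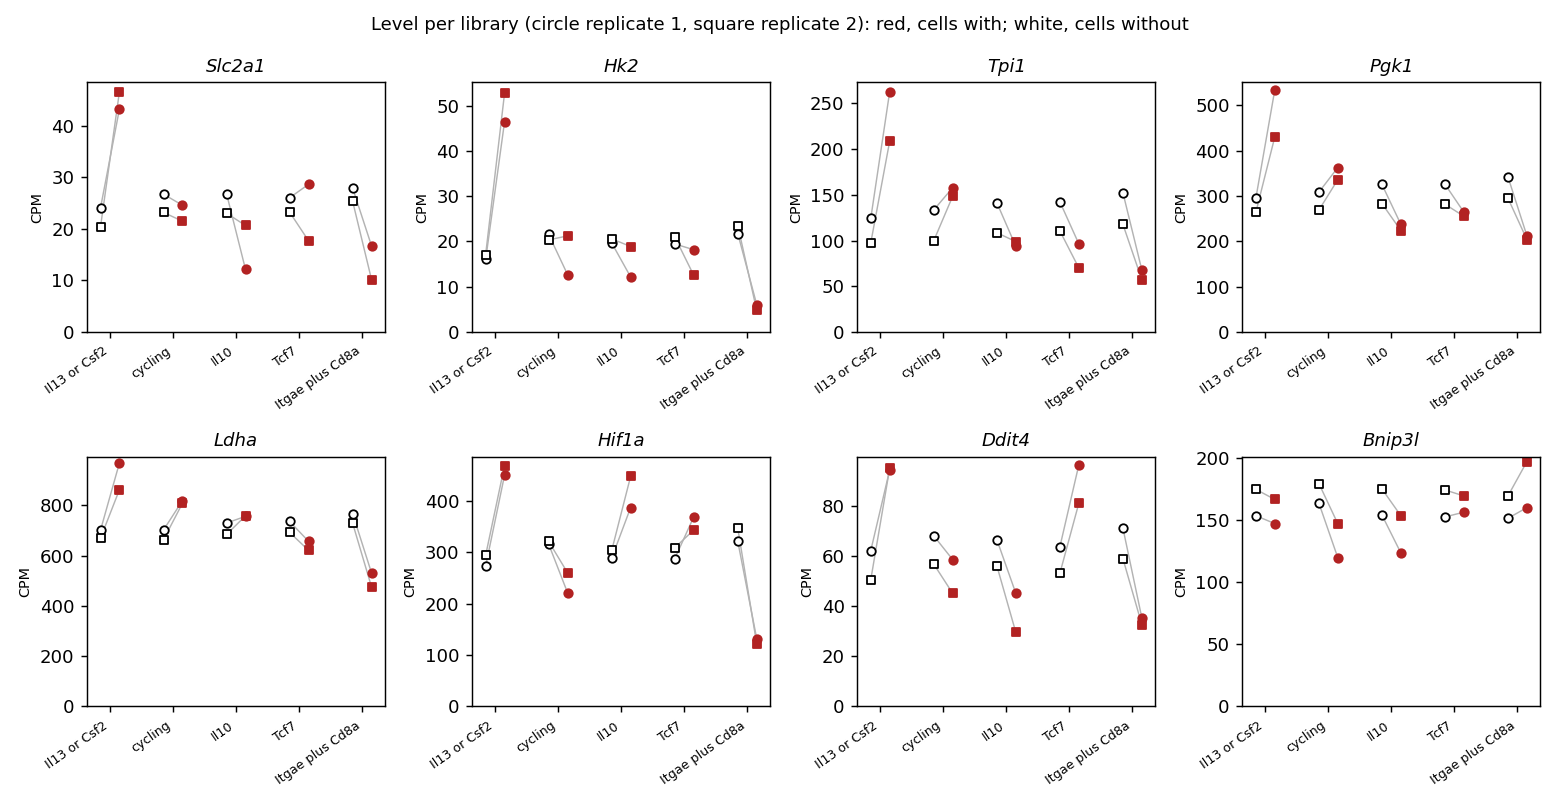
Level (CPM) of 8 members in each library, cells with the named genes (red) and without (white), for 5 splits; circles are replicate 1, squares replicate 2, and lines join the classes of a library. Hk2 reaches 46.5 and 52.8 CPM with Il13 or Csf2 and 6.04 and 4.79 CPM with Itgae plus Cd8a, and Bnip3l differs little in either.

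Cycling cells, those with at least 2 of 16 genes of DNA replication and mitosis, had members called in both directions. The class held 3742 and 2482 cells, 20.6% ± 5.51 (SD, n = 2). Of 31 members, 11 were higher and 8 lower, where 19.8% of the 11374 genes tested were higher and 15.2% lower. The members' median log2 fold change was -0.07, against -0.02 over all genes tested. The 11 were Tpi1, Gapdh, Pgk1, Pgam1, Eno1, Pkm and Ldha, which follow each other from triose phosphates to lactate, the carriers Slc16a3 and Slc16a1, and Mif and Higd1a. The 8 were Slc2a3, Hk2 and Pfkfb3 at the head of the chain, and Hif1a, Bnip3, Bnip3l, P4ha1 and Ddit4.

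Gapdh, the dehydrogenase of the chain, stood at 2385 and 2093 CPM in cycling cells and at 1878 and 1713 CPM in the others, higher in both libraries (log2 0.35 ± 0.041 SE, n = 2, adjusted p = 1.06e-15 by edgeR's quasi-likelihood test). Pkm, pyruvate kinase, stood at 673 and 638 CPM against 549 and 501 CPM (log2 0.35 ± 0.050 SE), and Ldha at 819 and 808 CPM against 702 and 664 CPM (log2 0.28 ± 0.048 SE). Tpi1 stood at 158 and 149 CPM against 134 and 99.9 CPM, with a larger difference in replicate 2 (log2 0.43 ± 0.066 SE). For these genes, picked as called, the classes did not overlap. Pgk1 (log2 0.31 ± 0.055 SE) and Pgam1 (log2 0.21 ± 0.060 SE) were higher by less. Mif, a cytokine whose gene is a HIF target, stood at 402 and 387 CPM against 315 and 284 CPM (log2 0.43 ± 0.054 SE), and Higd1a, a mitochondrial protein of the hypoxia response, at 209 and 190 CPM against 180.5 and 170.4 CPM (log2 0.22 ± 0.061 SE).

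Hif1a stood at 221 and 260 CPM in cycling cells and at 316 and 321 CPM in the others, lower in both libraries (log2 -0.38 ± 0.057 SE, adjusted p = 2.98e-10 by edgeR's quasi-likelihood test). Slc2a3, a high-affinity glucose transporter, stood at 32.6 and 42.4 CPM against 52.4 and 56.7 CPM (log2 -0.53 ± 0.096 SE). Bnip3l stood at 120 and 147 CPM against 164 and 180 CPM (log2 -0.34 ± 0.065 SE). These members, picked as called, were lower in both libraries, with no overlap of the classes. P4ha1 was at 20.0 and 24.4 CPM against 29.9 and 27.9 CPM (log2 -0.37 ± 0.121 SE) and Ddit4 at 58.6 and 45.1 CPM against 68.1 and 56.8 CPM (log2 -0.23 ± 0.088 SE). Hk2 rested on 1 library: it was at 12.7 CPM against 21.5 CPM in replicate 1 but at 21.2 against 20.3 CPM in replicate 2, where the log2 ratio was 0.07 (adjusted p over both = 0.0489 by edgeR's quasi-likelihood test). Pfkfb3, which makes the activator of phosphofructokinase, was called lower at under 12 CPM in every class and stood at log2 0.15, not called, when cells were thinned to 1000 UMIs. Slc2a1, at 24.6 and 21.5 CPM against 26.7 and 23.2 CPM, was not called.

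Outside the 32, 35 of 39 oxidative phosphorylation genes were higher in cycling cells and 1 was lower, with Cycs, cytochrome c, at 374 and 321 CPM against 237 and 226 CPM (log2 0.61 ± 0.056 SE). The pentose phosphate branch had 5 higher and 0 lower of 7, with Tkt, transketolase, at 189 and 169 CPM against 124 and 121 CPM (log2 0.58 ± 0.064 SE). The glucocorticoid list had 0 higher and 5 lower of 7, and the other hypoxia genes 2 higher and 3 lower of 26. The share of the 20 transporter, enzyme and exit genes was 0.536% and 0.495% in cells with 0 cycling genes and 0.549% and 0.496% with 2. It was 0.642% and 0.646% with 3 to 5, and 0.637% and 0.601% with 6 or more. The hypoxia list was at 0.124% and 0.120% with 0 and at 0.111% and 0.112% with 6 or more. It did not fall step by step, as its means over both libraries were 0.119% with 2 and 0.125% with 3 to 5. Mif, a member called higher in cycling cells, was then left out with its value known. The rest of the list was lower in cells with more cycling genes, at 0.0926% and 0.0912% with 0 and 0.0825% and 0.0894% with 2. It was at 0.0784% and 0.0801% with 3 to 5, and 0.0700% and 0.0736% with 6 or more. Depth and other measures differed between the same cells. From 2 to 3 to 5 cycling genes, median UMIs before thinning went from 2564.5 to 2538.5 in replicate 1 and from 3700 to 7658 in replicate 2. Shared barcodes went from 3.85% to 8.31% and from 2.24% to 13.8% of cells, and neutrophil markers from 0.239% to 0.283% and from 0.116% to 0.779% of UMIs. Their part in the step was not tested.

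Cycling cells carried 8.71% and 8.46% shared barcodes, against 1.07% and 0.890% of the others. Without shared barcodes 9 members were higher and 4 lower, where 1894 of 11272 genes tested were higher and 1288 lower. Slc16a3, Pgam1, Hk2, Pfkfb3, Bnip3 and Ddit4 lost their calls, with Hk2 at log2 -0.31 and adjusted p = 0.128 by edgeR's quasi-likelihood test. The 9 neutrophil markers summed to 0.313% and 0.388% of UMIs in cycling cells against 0.111% and 0.240%. Without cells that had markers of other types, 5 members were higher and 2 lower, where 980 of 10251 genes tested were higher and 391 lower. Median UMIs before thinning were 2990 and 5726.5 against 3157 and 3727. Without the 8% of cells with the most UMIs 7 members were higher and 3 lower, where 1341 of 11217 genes tested were higher and 693 lower. The part of doublets and of other cell types in these calls was not tested further.

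Cells with Tcf7, a transcription factor of naive and memory-like T cells, differed in few members. The class held 954 and 904 cells, 6.17% ± 0.113 (SD, n = 2). Of 31 members, 5 were lower and 2 higher, where 3.86% of the 11282 genes tested were lower and 3.47% higher. The members' median log2 fold change was -0.17, against -0.00 over all genes tested. All 5 lower members were enzymes and both higher ones were hypoxia genes.

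Tpi1 stood at 96.4 and 70.1 CPM in cells with Tcf7 and at 142 and 111 CPM in those without (log2 -0.61 ± 0.089 SE, n = 2, adjusted p = 0.000312 by edgeR's quasi-likelihood test). Pkm stood at 495 and 439 CPM against 585 and 530 CPM (log2 -0.27 ± 0.043 SE). Both enzymes were lower in both libraries, with no overlap. Pgk1 stood at 264 and 255 CPM against 326 and 282 CPM (log2 -0.24 ± 0.060 SE), Gapdh at 1788 and 1604 CPM against 2017 and 1787 CPM (log2 -0.18 ± 0.027 SE), and Ldha at 657 and 621 CPM against 736 and 692 CPM (log2 -0.17 ± 0.038 SE). These differences were small, and for Gapdh the classes overlapped across libraries. Ddit4 stood at 96.4 and 81.1 CPM against 63.7 and 53.2 CPM, higher in both libraries (log2 0.59 ± 0.099 SE, adjusted p = 0.00114 by edgeR's quasi-likelihood test). Hif1a stood at 369 and 344 CPM against 288 and 309 CPM (log2 0.25 ± 0.057 SE, adjusted p = 0.014 by edgeR's quasi-likelihood test).

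Slc2a1, at 28.7 and 17.7 CPM against 26.1 and 23.3 CPM, and Hk2, at 18.2 and 12.5 CPM against 19.4 and 21.002 CPM, were not called, and for Slc2a1 the libraries went opposite ways. Ldhb, the heart form of lactate dehydrogenase, was the 1 other glycolysis gene called of 13, higher at 11.9 and 8.85 CPM against 3.87 and 3.78 CPM (log2 1.43 ± 0.320 SE). Oxidative phosphorylation had 0 higher and 7 lower of 39, and the other hypoxia genes had 0 called of 26. The class had fewer neutrophil marker UMIs, 0.0120% and 0.0608% against 0.171% and 0.278%. Without cells with markers of other types 4 members kept their calls, and Pgk1, Pkm and Hif1a lost theirs. With no library block 0 were called. All 7 calls stood, and 1 was added, without the shared barcodes. Over all genes, 496 of 9924, 235 of 11282 and 1046 of 11220 were called in that order, against 826 of 11282 in the fit above.

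Cells with Il10, the anti-inflammatory cytokine, numbered 604 and 742, 4.48% ± 0.737 (SD, n = 2). Of 31 members, 2 were higher and 3 lower, where 3.25% of the 11451 genes tested were higher and 2.02% lower. The members' median log2 fold change was -0.07, against -0.02 over all genes tested. Hif1a stood at 387 and 448 CPM in cells with Il10 and at 289 and 304 CPM in those without, 1.48-fold higher with no overlap (log2 0.57 ± 0.058 SE, n = 2, adjusted p = 3.05e-06 by edgeR's quasi-likelihood test). Ldha was higher by a small margin, at 756 and 758 CPM against 730 and 684 CPM (log2 0.17 ± 0.044 SE, adjusted p = 0.03 by edgeR's quasi-likelihood test).

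Lower with Il10 were Pgk1, at 237 and 224 CPM against 325 and 283 CPM (log2 -0.33 ± 0.066 SE), and Eno1, the enolase, at 287 and 295 CPM against 376 and 360 CPM (log2 -0.27 ± 0.060 SE). Ddit4 was lower as well, at 45.3 and 29.7 CPM against 66.6 and 56.2 CPM (log2 -0.66 ± 0.154 SE). These called genes did not overlap between the classes. Slc2a1, at 12.1 and 20.7 CPM against 26.8 and 23.0 CPM, and Hk2, at 12.1 and 18.9 CPM against 19.7 and 20.6 CPM, were not called, and the libraries differed widely within the class. The other hypoxia genes had 0 higher and 2 lower of 26: Ndrg1, at 4.42 and 1.80 CPM against 12.5 and 9.60 CPM, and Rbpj, the Notch pathway's DNA-binding protein, at 57.4 and 71.0 CPM against 102 and 109 CPM. Without the shared barcodes 3 members were higher and 3 lower, and all 5 calls stood. Without cells with markers of other types 2 of the 5 calls stood, and without the library block 1. Over all genes, 750 of 11223, 405 of 9936 and 272 of 11451 were called in that order, against 603 of 11451 in the fit above. The calls also depended on the thinning. A second random thinning again called 5 members, but only 3 of the 5 calls above stood. With thinning to 1000 UMIs 2 of the 5 stood, and with no thinning 1. With thinning to 2000 UMIs all 5 stood. Over all genes, these thinnings called 711 of 11442, 329 of 10935, 348 of 13249 and 975 of 11487 in that order.

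Across the splits, 19 members were higher with Il13 or Csf2 and lower with Itgae plus Cd8a. Those splits use the same cells, so the count does not give independent evidence. With cycling, 11 members were higher in both that class and the cytokine class, and 6 were higher in the cytokine class and lower in cycling cells. Egln1, an oxygen sensor that marks Hif1a for destruction, was called in no split, and Vegfa was not tested.

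Classes that leave out every cell meeting more than 1 criterion were then compared directly, in a fit of 12 sums with 5 residual degrees of freedom. They held 1690 and 1865 cells with Itgae plus Cd8a alone, 699 and 665 with Tcf7 alone, 2623 and 1762 cycling alone, 382 and 539 with Il10 alone, and 1075 and 1020 with Il13 or Csf2 alone. The share of the 20 transporter, enzyme and exit genes was 0.785% and 0.682% with Il13 or Csf2 and 0.612% and 0.586% in cycling cells. It was 0.540% and 0.50003% in cells meeting no criterion, 0.479% and 0.509% with Il10, and 0.479% and 0.457% with Tcf7. With Itgae plus Cd8a it was 0.376% and 0.360%, below every other class in both replicates. The Il10 class overlapped with the Tcf7 class and with the cells meeting no criterion, and the last lay above the Tcf7 class in both replicates. The hypoxia list was 0.176% and 0.159% with Il13 or Csf2 and 0.0812% and 0.0830% with Itgae plus Cd8a, and between 0.118% and 0.128% in each library of the other classes.

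**Figure D4:**
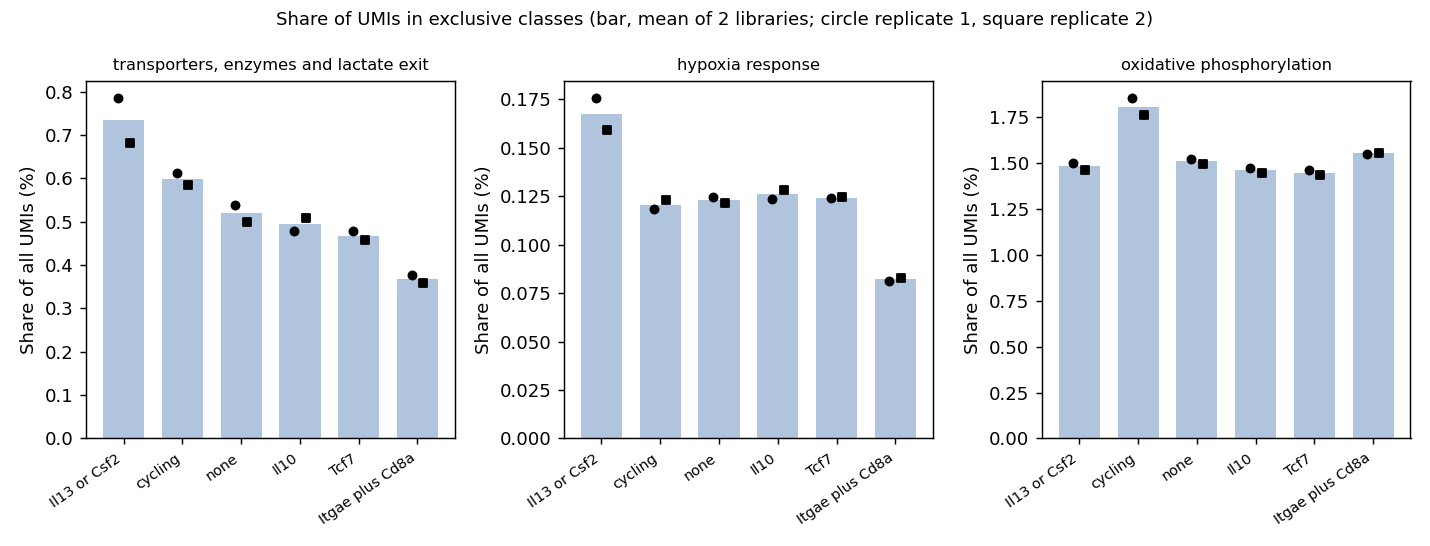
Share of all UMIs (%) in the transporter, enzyme and exit genes, the hypoxia response genes and 39 oxidative phosphorylation genes, in classes of cells that meet 1 criterion or none; bars are means of 2 libraries, circles replicate 1 and squares replicate 2. The first list is at 0.785% and 0.682% with Il13 or Csf2 and at 0.376% and 0.360% with Itgae plus Cd8a, while oxidative phosphorylation is highest in cycling cells, at 1.85% and 1.76%.

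Between the cycling and the cytokine class, 20 of 31 members were lower in cycling cells and 0 higher, where 14.9% of the 9628 genes tested were lower and 17.8% higher. Hk2 stood at 10.4 and 20.1 CPM in cycling cells and at 55.2 and 58.8 CPM with Il13 or Csf2, 4.01-fold lower (log2 -2.00 ± 0.195 SE, n = 2, adjusted p = 1.24e-12 by edgeR's quasi-likelihood test). Slc2a1 stood at 26.2 and 21.2 CPM against 54.0 and 50.3 CPM (log2 -1.15 ± 0.172 SE), and Hif1a at 222 and 261 CPM against 518 and 502 CPM (log2 -1.12 ± 0.069 SE). All 3 were separated by a wide margin in both libraries. Gapdh, at 2396 and 2181 CPM against 2569 and 2290 CPM, and Mif, at 406 and 409 CPM against 480.0 and 369 CPM, overlapped and were not called. Oxidative phosphorylation ran the other way, with 30 of 39 genes higher in cycling cells and 0 lower. Markers of other cell types were higher in cycling cells too: 8 of 8 neutrophil, 3 of 3 basophil or mast cell, 4 of 4 erythroid and 5 of 5 epithelial markers tested. Neutrophil markers summed to 0.384% and 0.494% of UMIs in cycling cells against 0.0136% and 0.1004%, and erythroid markers to 0.0157% and 0.0530% against 0.000992% and 0.00307%. Shared barcodes made up 9.45% and 9.48% of the cycling class and 0.744% and 0.784% of the cytokine class. Without the shared barcodes 23 members were lower, where 1363 of 9543 genes tested were lower. Without cells with markers of other types 12 of 27 members tested were lower, where 698 of 7776 genes were lower. Beyond these counts the part of such cells was not tested.

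Cells with Il10 had lower levels of most of the chain than cells with Il13 or Csf2, without a call for Hif1a. Hif1a stood at 421 and 471 CPM with Il10 and at 518 and 502 CPM with Il13 or Csf2, with no call (log2 -0.18 ± 0.081 SE, adjusted p = 0.172 by edgeR's quasi-likelihood test). Of 31 members, 18 were lower with Il10 and 0 higher, where 7.19% of the 9628 genes tested were lower and 5.23% higher. Tpi1 stood at 66.3 and 96.5 CPM against 310.1 and 222 CPM, 3.09-fold lower (log2 -1.63 ± 0.147 SE, adjusted p = 3.89e-13 by edgeR's quasi-likelihood test). Hk2 stood at 10.5 and 19.8 CPM against 55.2 and 58.8 CPM (log2 -1.84 ± 0.297 SE), and Ero1l at 17.5 and 24.7 CPM against 89.9 and 69.3 CPM (log2 -1.86 ± 0.239 SE). Ldha was lower by less, at 709 and 767 CPM against 1001 and 884 CPM (log2 -0.33 ± 0.068 SE). Every one of these 4 was lower in both libraries of the Il10 class. This contrast and the one before use the same cytokine cells. Of 8 neutrophil markers tested, 6 were higher with Il10, and these markers summed to 0.135% and 0.139% of UMIs against 0.0136% and 0.1004%. Of 3 basophil or mast cell markers tested, 2 were higher, and these summed to 0.00105% and 0.0160% against 0.000434% and 0.000784%. Of 6 myeloid or dendritic markers 0 were higher and 1 was lower. The part of all these markers was not tested further than here. The count of lower members was 18 again without the shared barcodes, where 675 of 9543 genes tested were lower. Without cells with markers of other types it was 13 of 27 tested, where 409 of 7776 genes were lower.

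Between Itgae plus Cd8a and Tcf7, 13 of 31 members were lower with Itgae plus Cd8a and 3 higher, where 13.2% of the 9628 genes tested were lower and 11.1% higher. Hif1a stood at 120 and 121 CPM against 383 and 347 CPM, 2.95-fold lower (log2 -1.56 ± 0.089 SE, n = 2, adjusted p = 3.15e-21 by edgeR's quasi-likelihood test). Ddit4 stood at 33.9 and 34.3 CPM against 103.0 and 88.2 CPM (log2 -1.43 ± 0.156 SE), and Slc2a1 at 16.6 and 9.29 CPM against 30.5 and 20.1 CPM (log2 -0.94 ± 0.277 SE). All 3 were lower in both libraries. Eno1, at 219 and 222 CPM against 342 and 355 CPM, was lower too (log2 -0.61 ± 0.081 SE), whereas Tpi1, at 56.0 and 49.0 CPM against 75.3 and 62.2 CPM, was not called. The 3 higher members were Hk1, Pfkp and Bnip3l, which were also the higher ones of the Itgae plus Cd8a split, where the same Itgae plus Cd8a cells were used. Hk1 stood at 56.8 and 57.9 CPM against 40.1 and 37.1 CPM, higher in both libraries (log2 0.61 ± 0.168 SE). Of markers of other cell types, 4 of 4 erythroid and 2 of 5 epithelial markers tested were higher with Itgae plus Cd8a. Erythroid markers summed to 0.00103% and 0.0345% of UMIs against 0.00134% and 0.00411%, so the difference lay in replicate 2, and epithelial markers to 0.00974% and 0.00840% against 0.00191% and 0.00241%. Without the shared barcodes 14 members were lower and 3 higher, where 1280 of 9543 genes tested were lower and 1024 higher. Without cells with markers of other types 9 of 27 members were lower and 0 higher, where 818 of 7776 genes were lower and 627 higher. The higher calls depended on the thinning. A second random thinning gave 13 lower and 1 higher, and no thinning 19 lower and 2 higher. Over all genes these gave 1223 lower and 943 higher of 9593, and 2016 lower and 1790 higher of 11361. Thinning to 1000 UMIs gave 11 lower and 0 higher, and to 2000 UMIs 14 lower and 0 higher. Over all genes these gave 750 lower and 591 higher of 8715, and 1443 lower and 1168 higher of 10071.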

How the data were processed

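UMI counts of single cells were measured by the 10x Genomics 3' protocol in 2 expression libraries and 2 hashtag libraries. The deposited values are raw counts per gene and barcode, made by the authors with Cell Ranger 3.1.0 against mm10, per the submitters' processing notes. The hashtag libraries list the same 31053 genes and 0 hashtag features. Kept cells were thinned to 1500 UMIs (seeded), summed per class and library, and tested with edgeR 4.0.16 (quasi-likelihood, TMM, low-count filter, library block, Benjamini-Hochberg over all genes) in R 4.3.3, and checked with DESeq2 1.42.0. Genes defining a class were left out of its test. The code was tested on simulated data. No doublet caller was run. Per-library values are given for up to 8 called members per direction with the largest change and at least 20 CPM, plus Hif1a, Slc2a1, Hk2 and Ldha. The members and gene lists were chosen with earlier results of these data known. Totals were 89427990 and 108082997 UMIs. Alternatives changed scaling, filters, thinning, criteria and cells.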

Additional observations from a re-analysis of the deposited data

Results flagged for a closer look

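The hashtag libraries, which no comparison used, held UMIs of the glycolysis and hypoxia genes. The 32 members summed to 1104 of 157432 UMIs in the hashtag library of replicate 1 and to 1424 of 208698 in that of replicate 2, above the limit of 3 counts that a count of 0 allows. These were 0.701% and 0.682% of UMIs. In the thinned cells of the expression libraries the members took a similar 0.648% ± 0.0355 (SD, n = 2). The counts are therefore no result particular to the members.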

How the results depend on the processing

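Of 2372 values of called members recomputed under an alternative, 2014 counted as the same, 282 lost the call and 74 were single-library values away from the joint one. Those 2014 include 91 values without replicate 1 and 102 without replicate 2, which come from a single library and have no threshold. They counted as the same when near the joint value, judged by the SD of the same 2 libraries, so they do not check the calls. The rest of the 2014 kept direction and side of the threshold. Another 2 values changed sign: Pfkfb3 in cycling cells, log2 0.15 with thinning to 1000 UMIs, and Hk2 in cycling cells, log2 0.068 without replicate 1 and -0.76 without replicate 2. The calls over all genes changed with the settings too, and are given after the members. With DESeq2 the called members were 15 for Itgae plus Cd8a (0 of them higher), 3 for Tcf7 and 9 for cycling. They were 1 for Il10 and 15 for Il13 or Csf2. Over all genes DESeq2 called 1186, 286, 1396, 219 and 578 in that order, against 3810, 826, 3983, 603 and 1965 above. The first were out of 17995 to 18010 genes and the second out of 11251 to 11451. Without the replicate block, which pairs classes of a library, the called members were 0 for Tcf7, 10 for cycling and 1 for Il10. Over all genes, 235 of 11282, 2359 of 11374 and 272 of 11451 were called. With no thinning the called members were 11 for Tcf7 and 2 for Il10, where 1 of the 2 was among the Il10 calls given above. Over all genes, 3186 of 13282 and 348 of 13249 were called. With thinning to 1000 UMIs the called members were 4 for Tcf7 and 3 for Il10, where 2 of the 3 were among those calls. Over all genes, 371 of 11091 and 329 of 10935 were called. Without cells with markers of other types the called members were 4 for Tcf7, 7 for cycling and 3 for Il10. They were 12 for cycling against Il13 or Csf2 and 9 for Itgae plus Cd8a against Tcf7. Over all genes, 496 of 9924, 1371 of 10251, 405 of 9936, 1422 of 7776 and 1445 of 7776 were called in that order. Without the cells with the most UMIs the called members were 10 for cycling and 8 for Il10, and without cycling cells 8 for Il10. Over all genes, 2034 of 11217, 763 of 11118 and 746 of 10899 were called. Against cells meeting no criterion, an alternative chosen after seeing the data, Tcf7 had 3, with 502 of 9628 genes called. The causes were not tested. Leaving out the shared barcodes and keeping only cells of 2000 UMIs were also chosen after seeing the data. A single library has no residual degrees of freedom, so leaving out a replicate gave values and no counts of calls. Depth limits the members under 20 CPM, and Vegfa most.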
